A study of Mus musculus with 4 samples.

Results

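The 708 macrophages described here were found among 36969 kept cells from the leg muscles of E18.5 mouse fetuses, and they made up 1.92% of those cells. A cell was counted as a macrophage where at least 3 of 6 genes (*C1qa*, *C1qb*, *C1qc*, *Pf4*, *Mrc1* and *F13a1*) had at least 2 unique molecular identifiers (UMIs, each standing for 1 captured transcript) and where *Pdgfra*, *Myog* and *Cdh5*, which mark fibroblast-like, myogenic and endothelial cells, had none. Measured expression therefore chose these cells. The study compared WT fetuses with littermates that lacked *SYISL*, a long noncoding RNA gene that lies within *Synpo2*. It used 2 WT and 2 KO libraries, described as biological replicates, and the leg muscles of each fetus were collected separately and were digested once the tail had been genotyped. The knockout was not limited to a cell type, and a droplet-based 3′ assay counted polyadenylated RNA.

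Macrophages of fetal tissues descend largely from yolk sac and fetal liver precursors, and they clear dying cells, recycle iron and release growth factors into the growing tissue. C1q, a complex built from the products of *C1qa*, *C1qb* and *C1qc*, starts the classical complement pathway and tags debris for uptake. In adult organs, macrophages with much LYVE1 (a hyaluronan receptor) lie along vessels and renew themselves, whereas macrophages with much MHC class II present antigen and are replaced from CCR2-bearing monocytes more often.

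The 4 libraries gave 158 macrophages of 8515 kept cells (WT replicate 1), 151 of 8177 (WT replicate 2), 192 of 9816 (KO replicate 1) and 207 of 10461 (KO replicate 2). Their median depth ran from 10690 to 13256 UMIs and from 3367 to 3882 genes per cell, and WT replicate 2 was the deepest. No macrophage barcode was shared between libraries. KO replicate 2 differed from the others in sex. Its macrophages held *Xist* at 1386 CPM (UMIs scaled to the same total in every library), against 0 in the other libraries, and *Ddx3y* at 1.67 CPM, against 102 to 111 CPM. *Synpo2* lay at 0.42 to 2.63 CPM, too low to check the genotype labels in these cells.

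The choice of cells rested on few borderline cases. All 6 markers passed in 658 of the 708 macrophages (92.9%). Just inside the threshold were 16 cells with 3 markers, in which *C1qa*, *C1qb* and *C1qc* had medians of 9, 10 and 6 UMIs. Just outside were 14 cells with 2 markers, where the same medians were 0, 1.5 and 0 UMIs. *Ccr2*, the receptor that draws monocytes out of the bone marrow, had a UMI in 10 of the 16 and in 7 of the 14 cells, and *Lyve1* had none in either set. A further 168 cells passed the markers but held a UMI of *Pdgfra*, *Myog* or *Cdh5*. In 117 of them it was a single UMI, their median depth was 14506 UMIs against 11380 in the macrophages, and the doublet caller Scrublet marked 25.6% of them against 3.11%.

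*C1qb*, *C1qc* and *C1qa* lie side by side on the minus strand of chromosome 4 (GRCm38, from 136880129 to 136898803), and *Pf4*, which encodes the chemokine platelet factor 4, lies on the plus strand of chromosome 5 (90772435 to 90773383). The promoters of 3 of these genes are shown because transcripts of these genes, found together in a cell, define the cells described. Each runs from 250 bases before to 50 bases after the start of the gene (RefSeq, GRCm38.p6, 5′ to 3′ on the strand of the gene), and capitals mark matches, on either strand, to GGAAGT, the core letters that ETS factors bind.
C1qb (chr4:136886151-136886450, minus strand): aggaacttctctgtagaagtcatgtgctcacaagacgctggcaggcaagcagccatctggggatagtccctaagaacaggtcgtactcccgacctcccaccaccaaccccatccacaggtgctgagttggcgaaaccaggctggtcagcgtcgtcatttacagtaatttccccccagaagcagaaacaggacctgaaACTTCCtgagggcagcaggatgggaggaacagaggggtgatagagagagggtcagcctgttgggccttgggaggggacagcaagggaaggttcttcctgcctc
C1qc (chr4:136892865-136893164, minus strand): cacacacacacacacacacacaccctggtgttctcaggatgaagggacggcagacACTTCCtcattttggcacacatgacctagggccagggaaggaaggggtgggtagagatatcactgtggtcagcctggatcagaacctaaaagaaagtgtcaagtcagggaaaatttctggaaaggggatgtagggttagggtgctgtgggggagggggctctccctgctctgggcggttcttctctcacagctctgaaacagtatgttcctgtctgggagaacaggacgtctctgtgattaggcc
Pf4 (chr5:90772185-90772484, plus strand): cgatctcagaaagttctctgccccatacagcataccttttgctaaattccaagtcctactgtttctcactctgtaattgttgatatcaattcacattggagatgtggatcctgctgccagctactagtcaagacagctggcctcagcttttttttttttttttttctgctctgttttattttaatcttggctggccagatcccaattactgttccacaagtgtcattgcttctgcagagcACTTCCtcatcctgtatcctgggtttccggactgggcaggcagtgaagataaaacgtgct

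Each of these promoters held 1 match, which lies on the opposite strand and so reads ACTTCC here. The 5 rule genes that had an entry (*C1qa* had none) had 6 promoters. The motif occurred in 5 of these 6, with a match for each of the 5 genes, and in 23.8% of all 32851 promoters in the table. The longer GAGGAAGT, the form read by PU.1, overlaps the first motif and occurred in 3 of the 6 (of *C1qc*, *Pf4* and *F13a1*) and in 3.20% of all promoters. PU.1 is the ETS factor of the myeloid lineage and is encoded by *Spi1*, whose level was 330 CPM in WT replicate 1, 370 in WT replicate 2, 337 in KO replicate 1 and 369 in KO replicate 2, against a mean of 5.24 CPM in all other kept cells. A match describes the letters in this window and is no evidence of binding.

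The cells carried a broad macrophage profile beyond the genes that selected them. Since a cluster of cells picked by its transcripts will differ from the rest in many genes, the levels below are a description with no test. *Csf1r*, the receptor for the survival factor CSF1, lay at 382 to 501 CPM in the 4 libraries, against a mean of 5.18 CPM in other kept cells. *Adgre1*, which encodes F4/80, lay at 394 to 552 CPM against 2.81, and *Ptprc*, the pan-leukocyte gene for CD45, at 230 to 289 CPM against 7.38. *Mertk*, a receptor for dying cells, was less selective, at 155 to 205 CPM against 31.8.

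**Figure D1:**
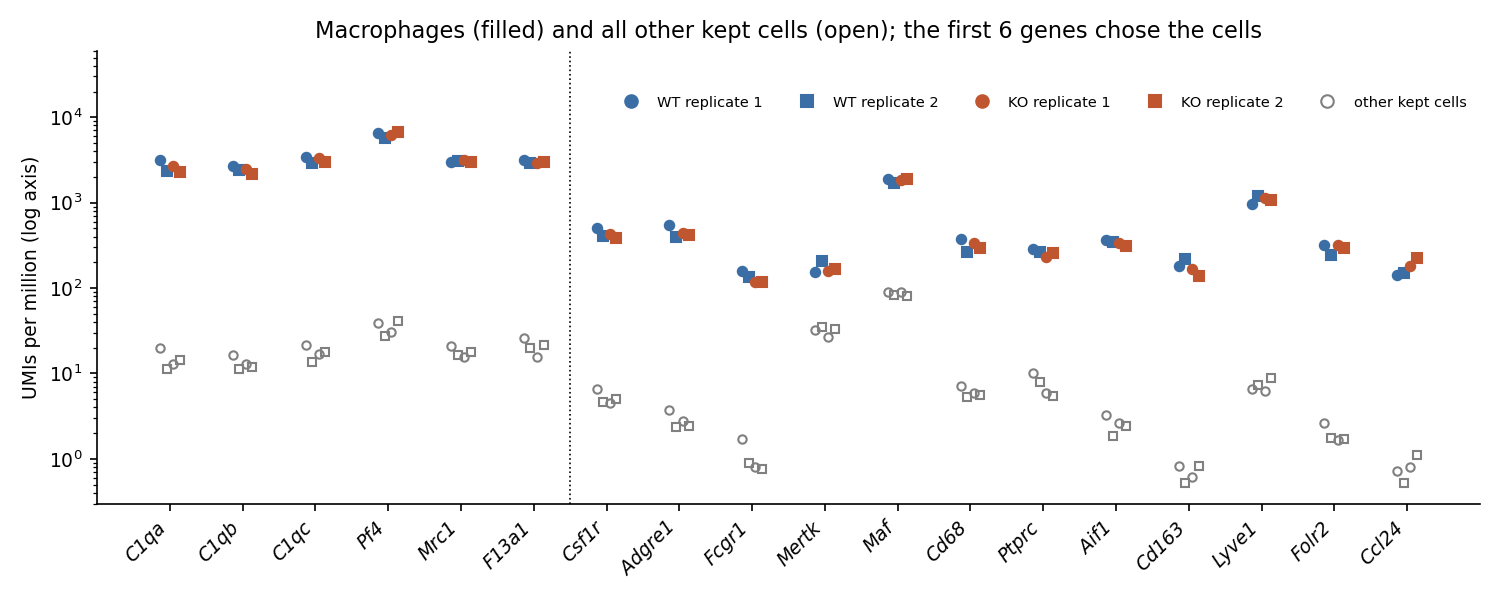
CPM (log axis) of 18 genes in the macrophages of each library (filled) and in all other kept cells of that library (open). The 6 genes left of the dotted line chose the cells, and the others did not. *Csf1r* lay at 382 to 501 CPM in macrophages and near 5.18 CPM elsewhere.

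Among genes outside the rule with at least 100 CPM in each library, *Cd163*, the scavenger receptor for haemoglobin bound to haptoglobin, had the highest ratio to other kept cells, 252-fold, at 139 to 216 CPM. The next in order were *Ccl24* (224-fold), an eosinophil-attracting chemokine, *Ms4a7* (211-fold), *Ccl12* (207-fold) and *Fcna* (196-fold), a lectin of the complement system. *Lyve1* stood among the 15 highest, at 151-fold, as did *Folr2* (a folate receptor of resident macrophages), also at 151-fold, and *Trem2* (a lipid-sensing receptor) at 151-fold.

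Genes for complement, uptake and heme handling were above other kept cells also without the genes of the rule. The 13 complement genes outside the rule summed to 1223 to 1310 CPM in macrophages against 54.1 to 82.6 CPM in other kept cells, and the 3 C1q genes, which chose the cells, held most of the full complement sum of 8744 to 10659 CPM. Phagocytic receptors without *Mrc1* (22 genes) summed to 7891 to 8580 CPM against 530.3 to 614 CPM, and iron and heme genes (12) to 15269 to 16535 CPM against 2857 to 2962. *Apoe*, which carries lipid between cells, was at 7025 to 9160 CPM and was by itself 68.7-fold above other kept cells. Chemokine genes without *Pf4* (18) summed to 6417 to 8977 CPM against 659.6 to 861 CPM. The 23 lysosomal genes were shared more widely, at 14824 to 16602 CPM against 3419 to 3589.

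Markers of most neighbouring cell states were at low levels, but several microglia genes were not. *Timd4*, which marks long-lived resident macrophages in many organs, was at 11.8 to 18.9 CPM. After each cell was thinned to 2000 UMIs, so that depths could be compared, 2.25% to 3.50% of macrophages were expected to hold a *Timd4* UMI, against 0.03% to 0.087% of fibroblast-like cells (at least 2 *Pdgfra* UMIs and under 2 UMIs of each marker). The 9 osteoclast genes summed to 51.2 to 61.5 CPM, against 166 to 188 CPM in other kept cells. The 10 dendritic cell genes summed to 66.9 to 83.6 CPM against 22.8 to 25.7 CPM. The 9 microglia genes summed to 1093 to 1335 CPM against 99.0 to 108 CPM in other kept cells. Of the 9, 6 were at least 10-fold above other kept cells, among them *Fcrls* at 170-fold. *Sall1*, a defining factor of microglia, was at 0 in all 4 libraries. *Cx3cr1*, the fractalkine receptor that microglia share with other macrophages, was found in 46.0% to 58.1% of thinned cells. Lymphocyte genes summed to 35.9 to 39.8 CPM against 3.53 to 7.53 CPM in other kept cells, and *Cd3d*, *Trbc2* and *Ncr1* were at 0. A *Cd79b* UMI was expected in 5.89% to 7.39% of thinned macrophages, against 0.00697% to 0.0278% of fibroblast-like cells.

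Transcripts of other cell types were present at low levels and differed between libraries. Fibroblast genes (7) summed to 498 to 703 CPM in the macrophages against 19533 to 21717 CPM in other kept cells. Erythroid genes (6) summed to 1224 CPM in WT replicate 2 and to 6.7 to 15.5 CPM in the other libraries. A single cell held 1235 of the 1240 *Hbb-bs* UMIs, a beta-globin gene, in WT replicate 2. Neutrophil genes (8) summed to 281 CPM in KO replicate 1 and to 5.9 to 13.9 CPM elsewhere, and 1 cell held all 134 UMIs of *S100a8*, a subunit of neutrophil calprotectin. Glial genes (5) ranged from 6.4 to 128 CPM, highest in WT replicate 1.

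*Lyve1* (chromosome 7, 110850607 to 110863239, minus strand) split the macrophages unevenly. No *Lyve1* UMI was found in 39 cells of WT replicate 1, 29 of WT replicate 2, 29 of KO replicate 1 and 38 of KO replicate 2, which is 135 cells in all (19.1%, exact 95% binomial interval 16.2% to 22.2%). Only 26 cells held a single UMI, and 547 (77.3%, interval 74.0% to 80.3%) held at least 2, with a highest value of 62 to 86 per library. These intervals cover counting error only. Cells with 1 UMI were fewer than cells with none or with at least 2 in every library.

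**Figure D2:**
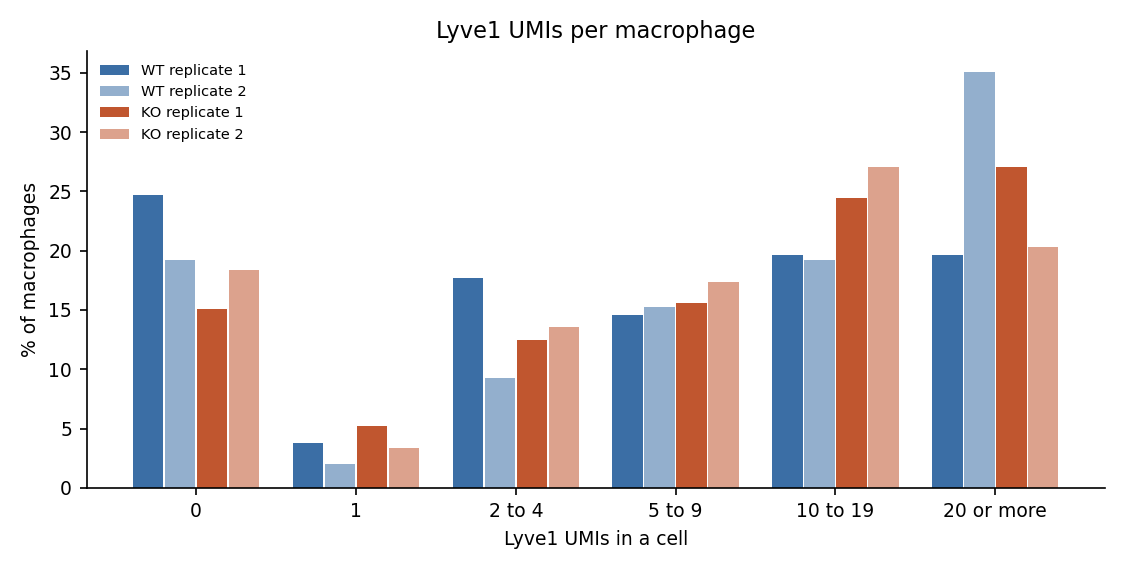
Percent of macrophages (vertical axis) by their number of *Lyve1* UMIs (horizontal axis), with 1 bar for each library. Cells with none made up 15.1% to 24.7% of a library, and cells with exactly 1 made up 1.99% to 5.21%.

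Depth differed between these cells. Those with no *Lyve1* UMI had medians of 9279 to 10921 UMIs and those with at least 2 had medians of 11035 to 13759. The part of depth in that count was not tested. Thinned to 2000 UMIs, 58.2% (WT replicate 1), 66.7% (WT replicate 2), 69.2% (KO replicate 1) and 65.8% (KO replicate 2) of macrophages were expected to show *Lyve1*. The same share in fibroblast-like cells, whose median depth was 9713 to 12578 UMIs, was 0.0845% to 0.129%, so the macrophage shares lay above the background level. Summed levels were 958, 1208, 1141 and 1073 CPM in the same order.

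Macrophages with at least 2 *Lyve1* UMIs (Lyve1-positive) were compared with those with none (Lyve1-negative) within each library, on UMIs summed per library and state. Of 8781 genes tested with edgeR (quasi-likelihood test, library as a block), 407 were higher (4.64%) and 445 lower (5.07%) in Lyve1-positive cells at a Benjamini-Hochberg adjusted p under 0.05. The split used *Lyve1* alone, and *Lyve1* and the 9 genes of the rule were left out. Both states come from the same libraries, so the test measures how evenly the difference recurs in 4 libraries. Most resident-type genes were higher and most monocyte genes were lower in Lyve1-positive cells. Both lists were chosen with earlier results of these cells known, so their counts are not independent evidence.

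Of 14 resident-type genes, 11 could be tested, 10 were higher and none lower, with a median log2 difference of 1.68 against -0.000422 over all genes tested. *Folr2* was at 91.3, 58.4, 61.7 and 27.3 CPM in Lyve1-negative cells (WT replicates 1 and 2, then KO replicates 1 and 2) and at 386, 279, 366 and 356 CPM in Lyve1-positive cells of the same libraries. Every positive value stood above every negative value. Its log2 difference was 2.53 ± 0.20 (SE worked back from the test statistic, adjusted p = 1.33e-06, edgeR). *Cd163* rose from 38.1 ± 4.22 to 205 ± 37.6 CPM (mean ± SD, n = 4 libraries), a log2 difference of 2.36 ± 0.18. *Ccl24* rose by 3.39 ± 0.24, and *Ednrb*, an endothelin receptor, by 2.57 ± 0.17. *Gas6*, a ligand that bridges dying cells to MERTK and AXL, rose from 220 ± 50.9 to 723 ± 32.2 CPM, and *Igfbp4*, an IGF-binding protein, from 203 ± 67.0 to 637 ± 31.7 CPM. *Selenop*, which carries selenium, showed the least of the 10 changes, 0.59 ± 0.12. *Timd4* did not pass, with 0.42 ± 0.41 (adjusted p = 0.644).

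Monocyte genes went the other way. Of 15, 11 could be tested, 9 were lower and none higher, with a median of -2.26. *Ccr2* (chromosome 9, plus strand) was at 58.1, 165, 99.3 and 94.5 CPM in Lyve1-negative cells and at 1.45, 2.95, 0.522 and 2.58 CPM in Lyve1-positive cells, in the same order of libraries. No library overlapped, and the log2 difference was -5.77 ± 0.32 (adjusted p = 7.30e-08, edgeR). *Plac8*, high in monocytes leaving the marrow, differed by -6.00 ± 0.39. WT replicate 1 had the lowest negative value, 47.0 CPM, against 319 to 405 CPM in the other libraries. *Fn1* (fibronectin) differed by -2.26 ± 0.25, *Ms4a4c* by -3.31 ± 0.44 and *S100a4* (a calcium-binding protein of motile cells) by -1.87 ± 0.15. *Gsr* and *Ifitm6* did not pass.

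**Figure D3:**
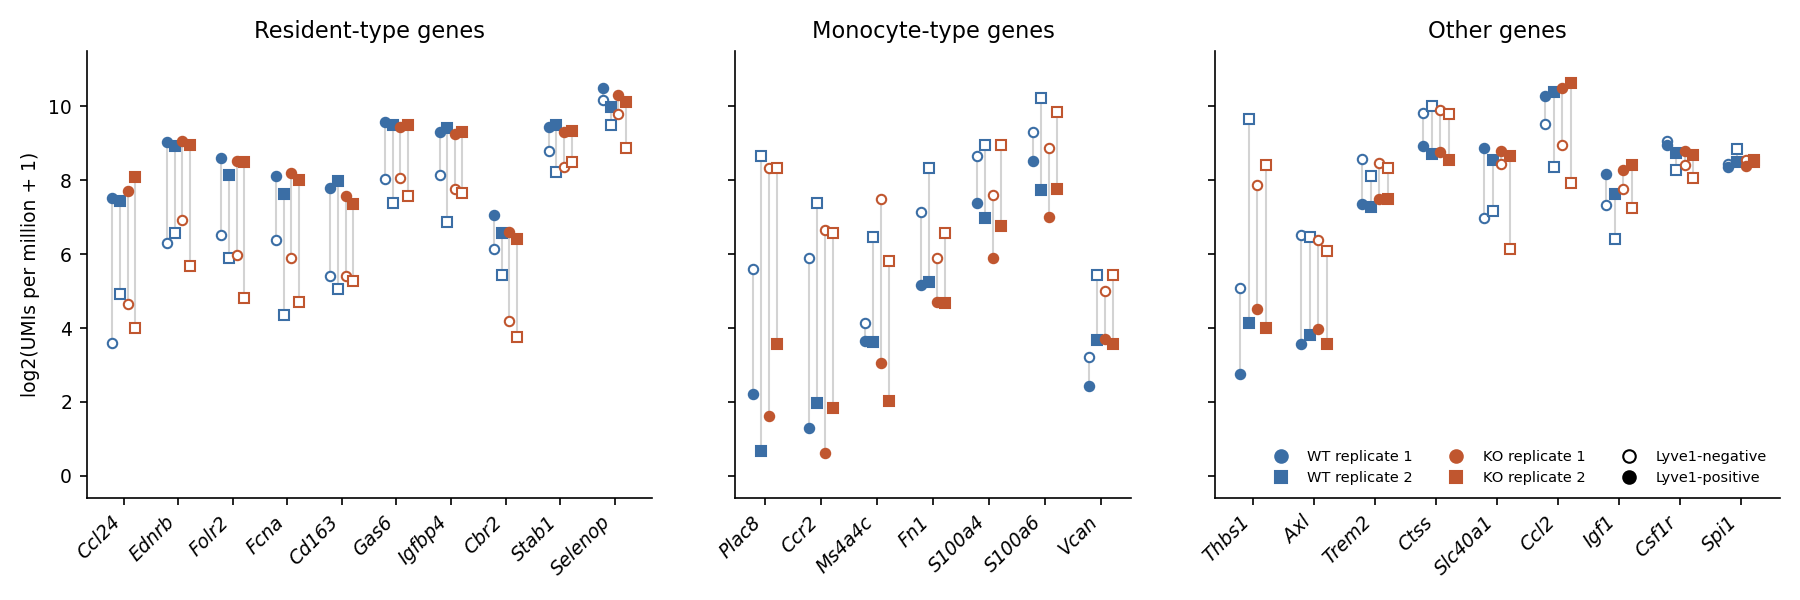
Levels, as log2(CPM + 1), of resident-type, monocyte-type and other genes in Lyve1-negative (open) and Lyve1-positive (filled) macrophages, with a grey line joining the states of each library. For *Folr2*, *Cd163* and *Ccr2* the states do not overlap in any library, whereas *Spi1* differs by -0.18 ± 0.11 and did not pass.

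Lyve1-negative macrophages were themselves mixed. A *Ccr2* UMI was found in 8 of 39, 16 of 29, 7 of 29 and 14 of 38 of them (20.5%, 55.2%, 24.1% and 36.8% in the same order), and in 0.654% to 2.52% of Lyve1-positive cells. Fewer Lyve1-negative cells had all 6 markers, 91 of 135 (67.4%) against 542 of 547 (99.1%). As a description of genes the rule used, *Mrc1* and *F13a1* averaged 1161 and 1115 CPM in Lyve1-negative cells and 3429 and 3385 CPM in Lyve1-positive cells. *C1qa* averaged 2547 and 2642 CPM, *C1qb* 2484 and 2425 CPM, and *C1qc* 2559 and 3286 CPM.

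*Ccr2* cells were unevenly spread over the states, so the comparison was repeated without the 56 cells that held a *Ccr2* UMI, an alternative added after the data were seen. In that fit 171 of 8616 genes (1.98%) were higher and 174 (2.02%) lower. Resident-type genes were called higher in 9 of 11 (median 1.39), with *Folr2* at 2.09, and monocyte genes lower in 5 of 7 (median -1.75), with *Plac8* at -3.43. Of 93 genes followed through the alternatives, 88 were called at first. Of those, 60 stayed called here and 21 fell short with the same sign, among them *Selenop*, *Hmox1*, *Itgam* and *Bmp2*. For *Cd74* and *Ccl6* the sign turned and the call was lost, and the rest were not tested here. A second repeat left out cells with at least 3 UMIs summed over 15 mitosis genes. There 183 of 6385 genes (2.87%) were higher and 199 (3.12%) lower, resident-type genes were higher in 10 of 10 and monocyte genes lower in 7 of 9.

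Receptors for uptake divided between the states. Of 19 tested, 7 were higher and 3 lower in Lyve1-positive cells, with a median of 0.37. The shares over all genes tested were 4.64% and 5.07%. *Colec12*, a scavenger receptor with a collagen-like stalk, rose from 114 ± 21.4 to 462 ± 24.3 CPM (log2 difference 1.96 ± 0.14), and *Clec10a*, a galactose-binding lectin, by 1.44 ± 0.22. The Fc receptors *Fcgr2b* and *Fcgr3* rose by 0.87 ± 0.14 and 0.66 ± 0.10. *Axl*, a receptor for dying cells, fell from 82.0 ± 10.6 to 12.3 ± 1.82 CPM (-2.76 ± 0.23), *Trem2* from 331 ± 42.9 to 168 ± 12.3 CPM (-1.02 ± 0.12) and *Lrp1* (an endocytic receptor for apolipoprotein E and other ligands) by -0.97 ± 0.14. All 3 kept a lower value without the *Ccr2* cells, where *Axl* differed by -2.56 and *Trem2* by -1.04.

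Iron handling leaned toward Lyve1-positive cells, with 6 of 12 tested genes higher and 2 lower, against 4.64% and 5.07% of all genes. *Slc40a1*, the iron exporter ferroportin, was at 125, 143, 343 and 69.6 CPM in Lyve1-negative cells and at 465, 373, 439 and 399 CPM in Lyve1-positive cells. KO replicate 1 had the highest negative value and the groups did not overlap (log2 difference 1.39 ± 0.24, adjusted p = 0.0015, edgeR). *Hmox1* and *Blvrb*, enzymes of heme breakdown, rose by 1.36 ± 0.29 and 0.68 ± 0.10. *Fth1*, a ferritin subunit, fell by 0.28 on the log2 scale and *Slc11a1*, a phagosomal metal transporter, by 0.69. Both of these calls were lost without *Ccr2* cells, without mitotic cells and with DESeq2. Of the 6 higher calls, 4, 5 and 4 remained in those fits, in the same order. The *Hmox1* call was lost without *Ccr2* cells and with DESeq2.

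Of 23 lysosomal genes, 1 was called higher and 5 lower, where 4.64% and 5.07% of all genes tested were. As a list they did not lean, with 11 estimates higher and 12 lower (median -0.0187). *Ctss*, a cathepsin of antigen-presenting cells, fell from 943 ± 62.5 to 427 ± 46.0 CPM (-1.19 ± 0.10). *Psap* (the precursor of saposins) fell by 0.85 and *Lyz2* (lysozyme) by 0.68. The *Lyz2* call was lost without *Ccr2* cells and without mitotic cells. *Acp5*, a phosphatase of osteoclasts and some macrophages, differed by -2.84 ± 0.36. Of the 8 complement genes tested, 1 was higher and 3 were lower, the latter being *Itgam* and *Itgb2* (the subunits of complement receptor 3) and *Cfb* (alternative pathway factor B), which fell by 1.08, 1.18 and 1.36. None of these 3 was called without the *Ccr2* cells, and only *Itgam* without mitotic cells.

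Chemokines and secreted factors changed in both directions. *Ccl2*, which draws monocytes, was at 736, 327, 493 and 244 CPM in Lyve1-negative cells and at 1245, 1336, 1429 and 1569 CPM in Lyve1-positive cells (log2 difference 1.66 ± 0.20). Its neighbours *Ccl7* and *Ccl12* rose by 1.32 ± 0.22 and 1.19 ± 0.27. *Cxcl16*, *Ccl4* and the receptor gene *Cxcr4* fell by 1.77, 1.06 and 1.85. Of the 19 secreted factors tested, 5 were higher and 3 lower, against 4.64% and 5.07% of all genes tested. *Igf1*, a growth factor for muscle fibres, rose from 153 ± 53.9 to 282 ± 60.6 CPM (0.86 ± 0.14) and *Bmp2* by 1.41 ± 0.34. *Pdgfb* and *Vegfa* fell by 2.01 and 2.59, and *Apoe* by 0.39. The cytokine gene *Il1b* fell by 1.98 and *Ptgs2*, which makes prostaglandins, by 1.44. In WT replicate 1, *Il1b* was at 83.0 CPM in Lyve1-negative and 77.7 CPM in Lyve1-positive cells. A single cell held 48 of the 57 *Il1b* UMIs in the Lyve1-negative cells of KO replicate 1. The *Il1b* call was lost without mitotic cells, and the *Ptgs2*, *Vegfa* and *Bmp2* calls without *Ccr2* cells.

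Of 16 factors and receptors of macrophage identity, 1 was higher and 5 were lower, against 4.64% and 5.07% of all genes tested. *Maf*, which holds back macrophage proliferation and guides the resident state, rose from 1164 ± 158 to 1959 ± 89.3 CPM (0.71 ± 0.08). *Id3* fell by 1.43 and *Nr1h3*, the oxysterol receptor LXR alpha, by 3.92. *Csf1r* (0.27 ± 0.13, adjusted p = 0.226) and *Spi1* (-0.18 ± 0.11, adjusted p = 0.413) did not pass. Of 20 genes that dissociation can induce, 5 were higher and 5 lower, against the same shares of all genes. *Jun* rose by 0.70 and *Socs3* fell by 0.84, so these genes did not move together.

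Many of the genes with the largest called change at a mean of at least 20 CPM belonged to neither list. On the higher side stood *Mgl2*, a galactose-binding lectin (3.47 ± 0.37), *Fam13a* (3.18 ± 0.40), *Gm4951* (2.81 ± 0.42), *Ltc4s*, which makes leukotriene C4 (2.13 ± 0.16), and *Ptprk* (2.12 ± 0.35). They stood beside the resident-type genes *Ccl24*, *Ednrb*, *Folr2*, *Fcna* (2.46 ± 0.22) and *Cd163*. On the lower side, beside *Plac8* and *Ccr2*, were *Thbs1*, which encodes thrombospondin 1 (-4.44 ± 0.31), *Plbd1* (-4.60 ± 0.49), *Cytip* (-3.65 ± 0.37), *St18* (-3.79 ± 0.46), *Abcg1*, a cholesterol exporter (-3.48 ± 0.46), and *Kcnip4* (-3.42 ± 0.67). *Bcl2a1a* (-5.51 ± 0.52) and *Bcl2a1d* (-4.42 ± 0.40) belong to a family of near-identical survival genes, and reads may be split among its copies. *Thbs1* was at 801 CPM in the Lyve1-negative cells of WT replicate 2 and at 33.2 CPM in those of WT replicate 1.

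Mitosis genes were higher in Lyve1-positive cells, in 12 of 15 (median 0.84), against 4.64% of all genes tested. *Prc1*, which bundles spindle microtubules, rose by 1.38 ± 0.22, and the spindle motor gene *Kif11* rose from 28.1 ± 5.26 to 67.5 ± 16.8 CPM. *Mki67* rose by 0.79 ± 0.20, but in 3 of 4 libraries. Thinned to 2000 UMIs, a sum of at least 3 UMIs of the 15 genes was expected in 16.1%, 20.4%, 12.2% and 19.7% of Lyve1-negative cells and in 16.5%, 28.9%, 27.9% and 27.9% of Lyve1-positive cells, in the usual order. WT replicate 1 hardly differed between the states. Without the *Ccr2* cells only *Prc1* was called of the 15 (median 0.62), and with DESeq2 7 were called.

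Markers of other cell types moved with the states as well. Lymphatic genes summed to 2.49 to 10.3 CPM in Lyve1-negative and 17.7 to 40.6 CPM in Lyve1-positive cells, and endothelial genes to 17.4 to 27.7 and 57.3 to 65.1 CPM. *Prox1*, a lymphatic factor, rose by 1.99 ± 0.51 and *Pecam1*, made by endothelium and some leukocytes, by 1.33 ± 0.31, while the lymphatic marker *Mmrn1* was at 0. *Acta1*, skeletal actin, rose by 0.87 ± 0.19. *Hbb-bs* was called at 4.30 ± 0.79, higher in 2 libraries and lower in 2, with nearly all of its UMIs in the single cell of WT replicate 2 named above. The part of these transcripts in the comparison was not tested. Leaving out a library gave 433 (without KO replicate 2), 500 (KO replicate 1), 589 (WT replicate 2) or 856 calls (WT replicate 1), against 852, and DESeq2 gave 464.

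Macrophages with MHC class II transcripts were rare. Any UMI of *H2-Aa*, *H2-Ab1* or *H2-Eb1*, the chains of the molecule, was found in 7 of 158, 4 of 151, 3 of 192 and 8 of 207 macrophages. That is 22 cells (3.11%, exact 95% interval 1.96% to 4.67%), of which 4 held at least 2 UMIs. Of 174 UMIs of these chains, 149 came from 1 cell of WT replicate 2. This cell held 58 UMIs of *H2-Aa*, 39 of *H2-Ab1*, 52 of *H2-Eb1*, 98 of *Cd74* (the invariant chain) and 15 of *Ccr2*, no *Lyve1*, and 3 of the 6 markers. The other 21 cells shared 25 UMIs.

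Thinned to 2000 UMIs, an MHC class II UMI was expected in 0.690%, 1.13%, 0.236% and 0.838% of macrophages, against 0.272% to 0.526% of fibroblast-like cells, which should lack the genes. KO replicate 1 lay below its own fibroblast-like cells (0.272%), and these shares are near background. A contrast of MHC class II states was not made, because under 10 cells per library held at least 2 UMIs. *Cd74* was more widespread, with 4.69% to 7.41% of thinned macrophages against 0.0337% to 0.110% of fibroblast-like cells. It differed by -2.10 ± 0.45 (log2) between Lyve1-positive and Lyve1-negative cells, lower in 3 of 4 libraries, but by 0.10 (adjusted p = 0.960, edgeR) without the *Ccr2* cells and by -0.99 (adjusted p = 0.0826) without WT replicate 2. *H2-DMa*, which loads peptides onto MHC class II, fell from 62.9 ± 9.51 to 12.5 ± 2.98 CPM (-2.39 ± 0.25) in Lyve1-positive cells. Outside the macrophages, 112 kept cells held at least 2 UMIs of the chains, 47 of them with *Ptprc*.

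The share of macrophages was slightly higher in both KO libraries than in both WT libraries. The WT replicates gave 1.86% and 1.85% and the KO replicates 1.96% and 1.98%, a mean of 1.85% ± 0.0063 against 1.97% ± 0.0161 (SD, n = 2 each). The difference of 0.116 percentage points had p = 0.333 (exact two-sided permutation test), the smallest p that 2 against 2 libraries allow, so no share could pass 0.05. With the looser cell filter the difference was 0.0361 points. Binomial intervals of single libraries, 1.58% to 2.17% for WT replicate 1 and 1.72% to 2.26% for KO replicate 2, overlapped.

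The states gave no difference that could pass the test. Lyve1-positive shares at 2000 UMIs averaged 62.5% ± 6.04 in WT and 67.5% ± 2.40 in KO (difference 5.07 points, exact permutation p = 0.667), and KO replicate 2 lay below WT replicate 2. Without thinning, 75.3% and 80.8% of WT and 84.9% and 81.6% of KO macrophages had a *Lyve1* UMI, so the groups did not overlap (exact permutation p = 0.333, the smallest possible). MHC class II shares averaged 0.910% ± 0.311 and 0.537% ± 0.425 (exact permutation p = 0.667). At least 3 mitotic UMIs were expected in 17.6% and 28.0% of WT and 25.6% and 25.5% of KO cells (exact permutation p = 1), so both KO values fell between the WT values. It was 14.9% to 20.5% in fibroblast-like cells. Without WT replicate 1, KO lay 2.48 points below WT instead of 2.74 points above. Adjusted over the 4 shares, every p was at least 0.889.

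**Figure D4:**
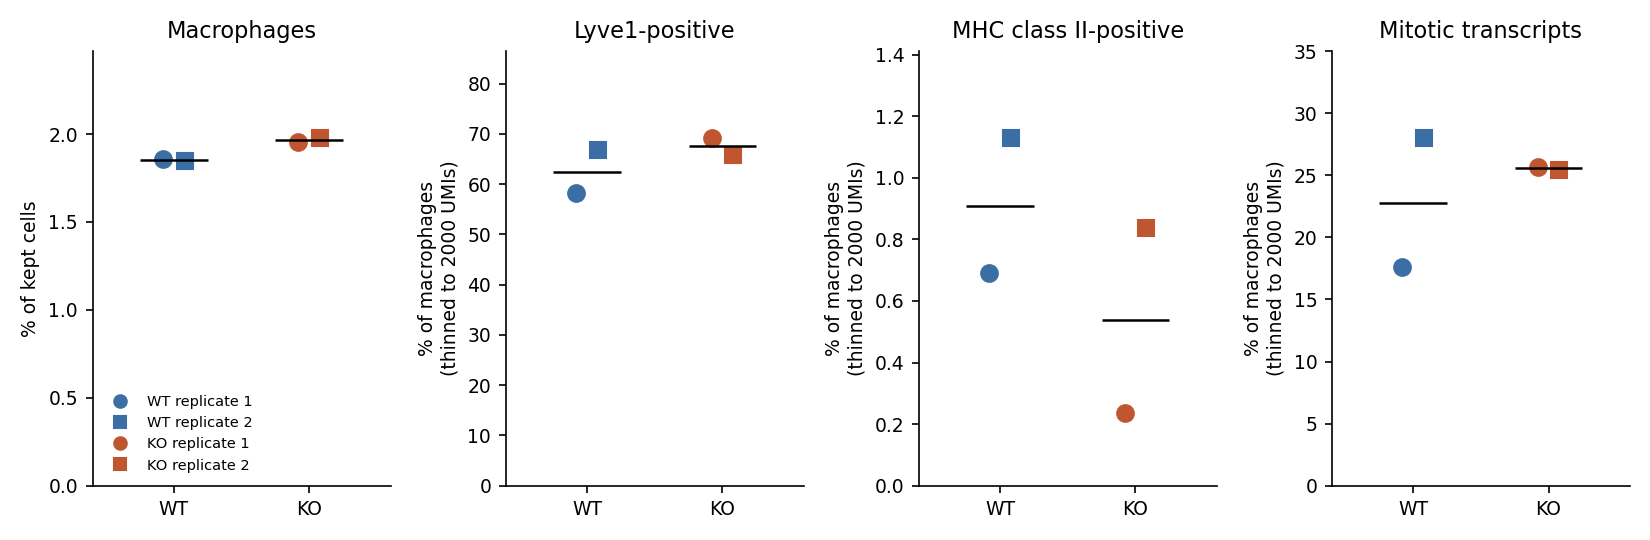
Macrophages as a percent of kept cells, and Lyve1-positive, MHC class II-positive and mitotic cells as a percent of macrophages after thinning to 2000 UMIs, with a point for each library and a line at each group mean. Each vertical axis starts at 0. The KO points overlap the WT range in all panels but the first.

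No gene was called between KO and WT macrophages. Of 10287 genes tested with edgeR on UMIs summed per library, 0% passed (smallest adjusted p 0.302), while 229 were higher (2.23% of genes) and 174 lower at an unadjusted p under 0.05. DESeq2 called 1 gene, *Fabp5*. With 2 libraries a group the median SE of a log2 difference was 0.22. These p-values measure the spread between libraries of separate fetuses.

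*Fabp5*, a fatty acid-binding protein, had the smallest p. WT replicates 1 and 2 had 329 and 355 CPM of it, and KO replicates 1 and 2 had 593 and 579 CPM. The groups did not overlap and the log2 difference was 0.80 ± 0.10 (adjusted p = 0.302, edgeR), with a range of 0.60 to 0.84 over all alternatives. The next genes named by the same rule, none of them called, were *Hist1h2ap*, a replication histone with many close copies (0.97 ± 0.20), and *Bcl2a1b*, a survival gene of the family named above (0.60 ± 0.13). On the lower side were *Ifit3*, induced by interferon (-1.61 ± 0.28), *Gm4951*, which is also among the genes higher in Lyve1-positive cells (-0.95 ± 0.19), and *Il1b* (-0.91 ± 0.19). *Ifit3* was at 42.7 and 51.6 CPM in WT and at 20.2 and 10.4 CPM in KO, although 1 cell of WT replicate 2 held 50 of its 105 UMIs there.

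Groups of genes leaned in opposite directions without calls. All 15 mitosis genes had a higher estimate in KO (median 0.54 against -0.000351 over all genes), 11 of them at an unadjusted p under 0.05 and 12 with both KO libraries above both WT libraries, a pattern found in 13.6% of all genes. *Mki67* was at 107 and 153 CPM in WT and at 190 and 187 CPM in KO (0.56 ± 0.17), and WT replicate 1 was the lowest library for each of the 15 genes. These are the transcripts whose thinned share, above, did not separate the groups. Replication genes of the same cycle list went the other way, with a median of -0.21 over 10 and both KO libraries below both WT libraries in 8, none at an unadjusted p under 0.05. Interferon-response genes had a median of -0.56 over 12 tested, and in 8 each KO value was under each WT value (18.1% of all genes). KO replicate 2 was the lowest library for 11 of the 12. *Isg15* was at 67.7 and 51.6 CPM in WT and at 49.6 and 30.9 CPM in KO (-0.54 ± 0.24), whereas *Cxcl10* was at 389 and 377 CPM against 443 and 524 CPM (0.36 ± 0.12).

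**Figure D5:**
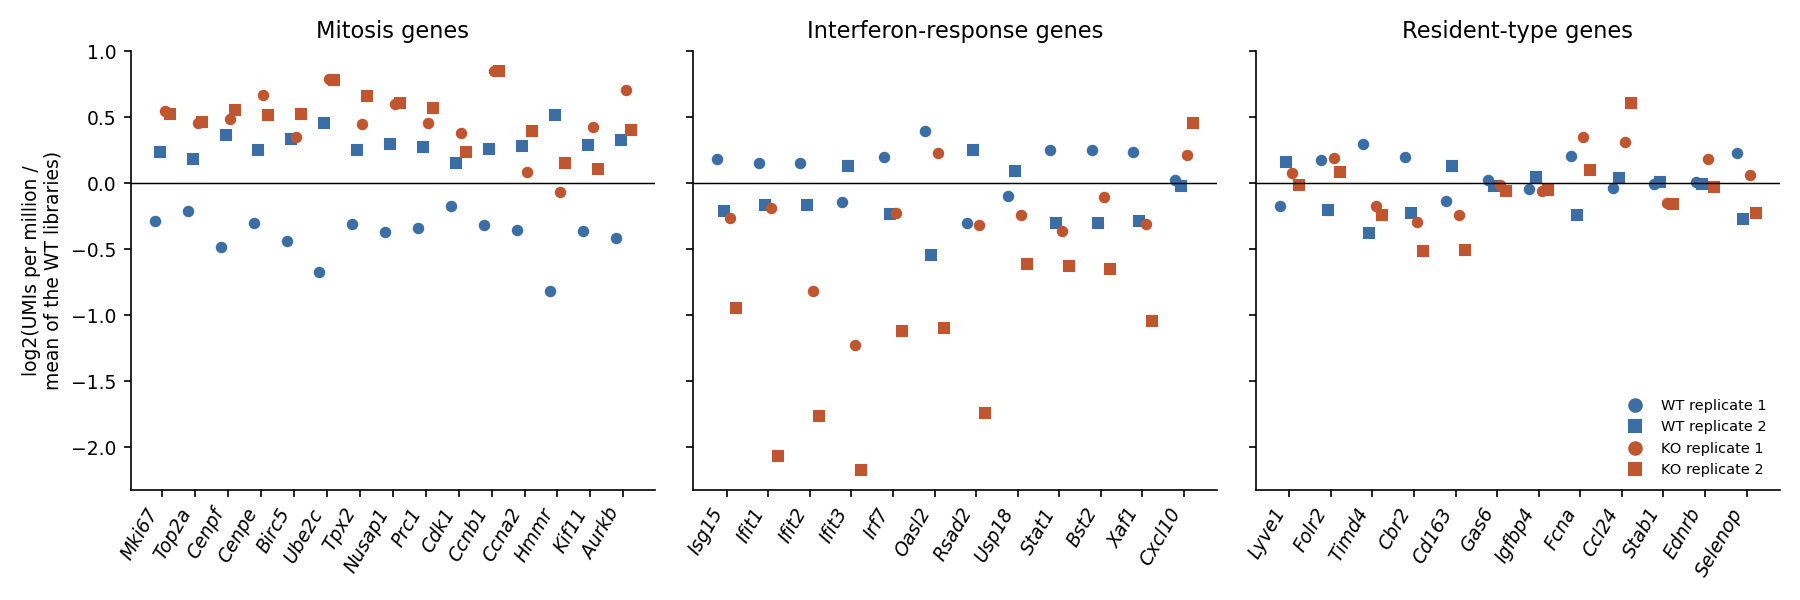
Level of each mitosis, interferon-response and resident-type gene in the macrophages of a library, as log2 of its CPM over the mean of both WT libraries. *Cd209f*, at 0 in 1 library, is left out. Mitosis genes are lowest in WT replicate 1 and *Ifit3* lowest in KO replicate 2, and no gene shown was called.

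The resident and monocyte programmes showed no call. Over 13 resident-type genes the median was -0.0308, with *Lyve1* at 0.06 ± 0.11, *Cd163* at -0.35 ± 0.14 and *Ccl24* at 0.49 ± 0.14. Over 9 monocyte genes it was 0.13, with 5 estimates higher in KO and 4 lower. Among the lower was *Ccr2* at -0.39 ± 0.37, which turned to 0.30 without WT replicate 2. *Fn1*, also lower, was at 54.9 and 83.6 CPM in WT and at 32.0 and 35.9 CPM in KO. Of 21 secreted factors, none was called. In 6 of them each KO value was over each WT value, a pattern of 13.6% of all genes tested. In 5 each KO value was under each WT value, against 18.1% of all genes. *Igf1* was at 253 and 179 CPM in WT and 299 and 303 CPM in KO (0.50 ± 0.17), and *Bmp2* differed by 0.65 ± 0.16. *Tgfb1*, a cytokine that restrains myogenic differentiation, was at 166 and 154 CPM against 140.0 and 143 CPM (-0.16 ± 0.12). *Hmox1* was at 1043 and 950 CPM against 1299 and 1174 CPM (0.33 ± 0.10). *Spp1*, which encodes osteopontin, was at 102, 71.3, 142 and 787 CPM. In KO replicate 2 a single cell held 1420 of its 1884 UMIs.

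The difference between the Lyve1 states was called to differ between genotypes for 2 of 8781 genes (0.0228%), *Cdkn1c*, a cell cycle inhibitor, and *Dmd*, the dystrophin gene of muscle. *Cdkn1c* was at 33.2, 32.4, 343 and 177 CPM in Lyve1-negative cells and at 123, 133, 126 and 58.4 CPM in Lyve1-positive cells. The KO libraries were high in Lyve1-negative cells and the WT libraries were low, and the interaction was -3.45 ± 0.33 (log2, adjusted p = 0.000893, edgeR). *Dmd* was at 2.77, 0, 99.3 and 49.7 CPM in Lyve1-negative cells and at 42.8, 3.54, 10.97 and 4.65 CPM in Lyve1-positive cells (-7.22 ± 0.84, adjusted p = 0.00438). Single cells weighed on both genes, in both states. For *Dmd*, 3 and 2 Lyve1-negative cells of the KO libraries held 29 and 20 UMIs, up to 19 in 1 cell, and 4 Lyve1-positive cells of WT replicate 1 held 59 UMIs, 21 of them in 1 cell. *Cdkn1c* was found in 54 to 84 macrophages of a library. Among Lyve1-negative cells 1 cell in each KO library held 45 of 100 and 48 of 71 of its UMIs, and among Lyve1-positive cells 1 cell in each WT library held 102 of 169 and 84 of 225. Neither gene was called once the cells marked by Scrublet were left out, with the looser cell filter, without the exclusion genes or without WT replicate 2.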

How the data were processed

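Leg muscle of E18.5 WT and KO fetuses (2 libraries each) had been dissociated with trypsin and DNase I, and single cells were profiled with a 3′ droplet assay. The authors deposited matrices of unnormalized UMI counts (genes by barcodes, 1 matrix per library), made with Cell Ranger 7.2.0 and mm10 according to the submitters' processing notes, with 9528 to 11670 barcodes and 109653824 to 126257094 UMIs over 32285 features. The authors' limits on genes per cell, applied here too, were meant in part to remove doublets, and a step against ambient RNA is not given in the sources used here.

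A barcode was kept if it had 1000 to 6000 genes, a total of 1000 to 25000 UMIs and a mitochondrial share below 8%, and the macrophage rule was applied to raw counts. Doublets marked by Scrublet (scanpy 1.11.5) were kept in the main values (22 of 708) and left out in an alternative. The members and gene lists were chosen with earlier results of these data known. Counts were summed per library, or per library and Lyve1 state, and tested with edgeR 4.0.16 (quasi-likelihood, TMM, R 4.3.3) with Benjamini-Hochberg adjustment at 0.05. The SE printed with a log2 difference was worked back from the edgeR test, as its size over the square root of the F statistic. DESeq2 1.42.0 was an alternative. Each summed profile is 1 sample, and cells were not treated as replicates. Depth differed between cells, so shares were also given as the share expected after thinning to 2000 UMIs, which left out 2 macrophages, all of WT replicate 1. Shares were compared by exact two-sided permutation over 4 libraries, and shares of single libraries have exact binomial 95% intervals for counting error only. The summed macrophage profiles held 1801997 to 2393064 UMIs. Without libraries of other litters, p-values measure only the spread between these samples.

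Genes were named by a rule. Named genes were those of the lists, up to 10 called genes in each direction with the largest change at a mean of at least 20 CPM and the same direction in 4 libraries, the 3 uncalled KO genes in each direction with the smallest p and no overlap, and the 15 genes with the highest ratio to other kept cells. *Hbb-bs*, *S100a8* and *Spp1* were chosen after their values were seen, because single cells held most of their UMIs, as were *Cdkn1c* and *Dmd*, the only genes called for the interaction. Gene positions came from GENCODE vM21 (GRCm38) and promoters from RefSeq (GRCm38.p6). Matching replicate numbers were checked by correlating deviations from group means (r = 0.173 over 10293 genes). With 2 libraries per group both pairs must give the same r. The check therefore cannot tell whether the replicate numbers mark a shared origin. Alternatives changed the normalization, the gene filter, the cell filters, the rule, the thinning and the libraries included. Tests were checked on simulated data. A few genes are not reported here.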

Additional observations from a re-analysis of the deposited data

Results flagged for a closer look

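The difference between Lyve1-positive and Lyve1-negative macrophages was called to differ between KO and WT for *Cdkn1c* and *Dmd*, by a test of the interaction. The log2 difference in KO minus that in WT was -3.45 for *Cdkn1c*, a cell cycle inhibitor, and -7.22 for *Dmd*, the dystrophin gene. In Lyve1-negative cells of KO replicates 1 and 2, the *Dmd* UMIs came from 3 and 2 cells, and 1 cell in each held 45 of 100 and 48 of 71 *Cdkn1c* UMIs. Both calls were lost without Scrublet doublets, with the looser cell filter, without the exclusion genes and without WT replicate 2.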

How the results depend on the processing

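No gene was called between KO and WT by edgeR (403 genes had an unadjusted p under 0.05), 1 by DESeq2, and 7 to 175 when a library was left out, the lone library of a group then being assumed to vary like the other group. A replicate block gave 4, but whether the replicate numbers mark a shared origin could not be told. Calls between Lyve1 states numbered 852, against 464 with DESeq2, 433 to 856 with a library left out, and, in alternatives chosen after seeing the data, 382 without mitotic cells and 345 without *Ccr2* cells. The interaction gave 2 calls, against 66 without a gene filter, 19 with at least 4 markers, 0 without Scrublet doublets, 0 with the looser cell filter, 3 without the exclusion genes, 30 without mitotic cells, 18 without *Ccr2* cells and 1 to 13 with a library left out.

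The MHC class II difference turned to 0.111 points with at least 4 markers. The mitotic difference turned to -2.95 points without thinning and ran from -2.48 to 7.96 points with a library left out. KO over WT log2 values turned for *Ccr2* (0.071 without the exclusion genes), and with a library left out they ran from -0.83 to 0.30 for *Ccr2*, from -0.094 to 0.22 for *Lyve1*, from -7.03 to 0.43 for *Hbb-bs* and from -1.48 to 3.57 for *S100a8*. Between the Lyve1 states the sign turned for *Timd4* (-1.34 without the exclusion genes), *Fth1* (0.017 without mitotic cells), *Cd74* (0.10) and *Ccl6* (0.074), both without *Ccr2* cells. The causes were not tested. The MHC class II state contrast was not run, because too few cells held at least 2 UMIs. With 2 libraries per group, shares could not pass 0.05.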
